A study of Mus musculus with 6 samples.

Results

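The genes described here encode nucleolar ribosome biogenesis factors, the proteins that transcribe, modify, cut and assemble ribosomal RNA in the nucleolus, together with MYC, a transcription factor of growing cells. The group was a named list of 47 genes of known function, and each gene was read from the array row that carries its symbol alone. Of the 47 genes, 44 were measured this way, each on 1 row, among 30702 genes in all. Npm3, Nop56 and Gnl3 are not analysed here; the rows of Nop56 and Gnl3 also carry the name of a snoRNA.

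The study compared mouse T cells cultured with and without glutamine on Affymetrix arrays. Naive CD4+ T cells (CD25-, CD62L+, CD44-) were sorted, stimulated through CD3 and CD28, and kept for 3 days under conditions that favour TH17 cells, the helper T cells that secrete IL-17. The medium was IMDM with 10% fetal bovine serum in all cultures. To it were added TGF-beta (1.25 ng/ml), IL-23 and IL-6 (20 ng/ml), and antibodies that neutralize IL-12, IL-4 and IFN-gamma (10 ug/ml). Each group, with or without glutamine, has 3 arrays. The arrays are labelled as biological replicates, and no source used here gives the mouse strain, sex or age or says whether the replicates came from separate mice, so the p-values cover only how much these arrays vary.

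Ribosome production begins when RNA polymerase I copies the ribosomal DNA into a long precursor. Small nucleolar RNAs, held in box C/D and box H/ACA ribonucleoprotein particles (snoRNPs), guide its methylation and pseudouridylation, and large assemblies of processing factors cut it and fold it into the small and large subunits. Activated T cells enlarge their nucleoli and make many ribosomes before they divide, and MYC is known to drive many genes of this programme. The comparison addresses how this set of transcripts stood after days of growth without glutamine, an amino acid that also supplies nitrogen for nucleotides.

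Levels are log2 values on the authors' deposited scale, and a difference is the mean without minus the mean with glutamine. The scale is not a plain one: the median row lay between 4.18 and 4.21 on the arrays with glutamine and between 4.33 and 4.38 on those without it, and 695 to 887 rows an array stood above 16, the log2 limit of a 16-bit scanner. Differences are therefore not given as folds. The T cell genes Cd3e (16.89 with and 16.90 without glutamine) and Cd4 (16.58 and 16.44) were high in both groups, and of 6 measured T cell genes 2 rose and none fell. Of 5 measured TH17 genes 5 fell, Il17a by 6.81 on the log2 scale. Of 13 measured markers of B cells, myeloid cells, CD8 T cells and NK cells, Lyz2 (5.80 with and 4.14 without) and Cd8b1 (8.10 and 7.39) fell and the other 11 did not pass. Cd8a, which defines CD8 T cells, read 3.83 and 3.78, below the median row. The mean level of the 13 markers was 4.23 to 4.30 on the arrays with glutamine and 4.13 to 4.14 without it, and their part in the results was not tested. Because these are bulk cultures, fewer cells of a type and less RNA per cell cannot be told apart.

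The absolute differences of the biogenesis genes had a median of 0.27, against 0.18 over all genes and 0.32 over genes above the median level. Of the 44 measured genes, 6 fell (13.6%), 1 rose (2.27%) and 37 did not pass (limma, adjusted p under 0.05 over all genes). Among all genes tested, 13% were called lower and 9.3% higher, 22.3% in all. Among genes above the median level, where all 44 lie, the shares were 24.9% and 13.7%, 38.7% in all. The share of falls in the group was thus near that of all genes and under that of genes above the median level. The genes that fell were Utp15, Rrs1, Polr1e, Wdr3, Ddx18 and Utp4, and the gene that rose was Polr1c. Over the 44 genes the median difference was -0.16, against 0.060 over all genes and -0.059 over those above the median level; 29 differences were below 0 and 15 above it. On the deposited scale the 95% interval of every one of the 44 genes lay within 1 log2 of 0. The outermost bounds were -0.94 (Utp15) and 0.90 (Rrp9). Intervals within 1 log2 of 0 were found for 88.6% of all genes and 78.4% of those above the median level. Within 0.5 log2 lay the intervals of 18 of the 44 genes (40.9%), against 57.8% of all genes and 37% of those above the median level.

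**Figure D1:**
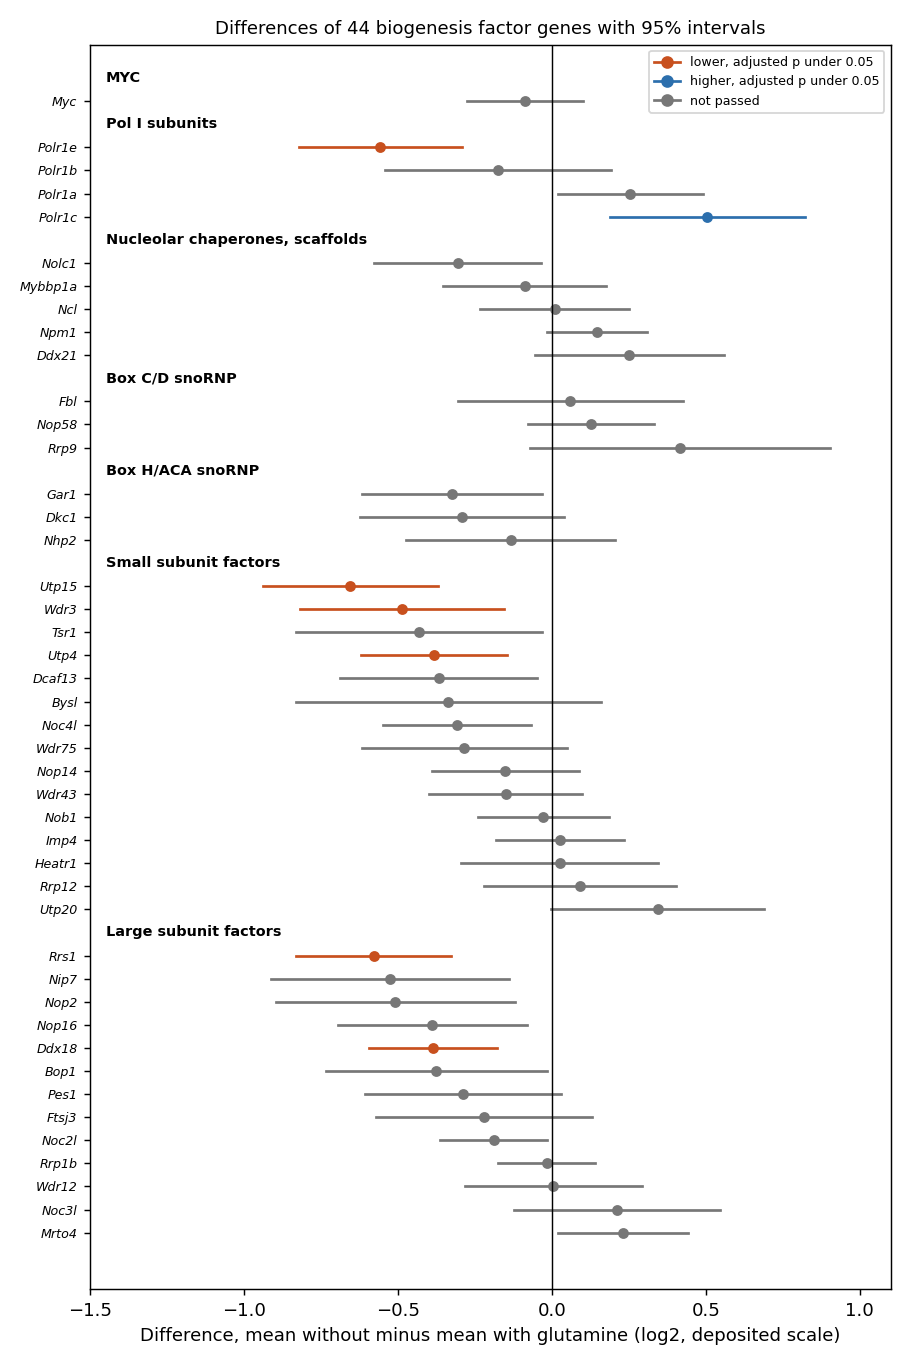
Each point is the difference in level (log2, without minus with glutamine) of 1 gene and the bar its 95% interval from limma, in rows sorted by role. The differences run from -0.66 (Utp15) to 0.50 (Polr1c), 6 genes are marked lower, 1 is marked higher, and most bars of the nucleolar chaperone and box C/D genes cross 0.

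The number of falls changed with the arrays used. It was 3 without replicate 1 with glutamine, 2 without replicate 2 without glutamine, 3 without replicate 3 without glutamine and 11 without replicate 1 without glutamine, against 6 over all arrays. The shares of all genes called lower in those fits were 9.63%, 8.68%, 9.34% and 11.1%, beside 6.82%, 4.55%, 6.82% and 25% of the 44 genes. Shares over genes above the median level were not taken in those fits. Utp15 and Rrs1 were called lower in every one of these fits. The ranges of the 2 groups did not overlap in 19 of the 44 genes, 14 of them lower and 5 higher without glutamine; in all genes 43.8% stood apart, 18.8% on the lower side and 25% on the higher side, and in genes above the median level 56.2%, 33.9% and 22.3%.

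Myc, the regulator named with the group, was nearly level on the deposited scale. Its 3 arrays with glutamine read 14.46, 14.66 and 14.49, and those without it read 14.45, 14.41 and 14.49. The groups overlapped, with the highest value on an array with glutamine. The difference was -0.09, with a 95% interval from -0.28 to 0.10 (SE 0.0788, limma adjusted p = 0.453). The interval of Myc leaves room for a modest difference in either direction.

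Of the 4 subunits of RNA polymerase I in the group, 1 rose, 1 fell and 2 did not pass. A further subunit, Polr1d, was outside the group and fell, as given further on. Polr1c, a subunit shared with RNA polymerase III, rose: it read 10.46, 10.14 and 10.02 with glutamine and 10.85, 10.59 and 10.68 without it, and every array without glutamine stood above the others (difference 0.50 ± 0.133 SE, limma adjusted p = 0.0379). Polr1e, which encodes the PAF53 subunit that helps the enzyme engage the ribosomal DNA, fell from 7.86, 7.47 and 7.57 to 7.12, 7.04 and 7.07, again with no overlap (difference -0.56 ± 0.111 SE, limma adjusted p = 0.0146). Polr1a, the largest catalytic subunit, read 10.89, 10.73 and 10.92 with and 11.25, 10.96 and 11.10 without glutamine. Its groups stood apart, but the difference of 0.26 did not pass (limma adjusted p = 0.114). For Polr1b, the other catalytic subunit, the values were 10.29, 10.10 and 10.09 with and 10.32, 9.85 and 9.78 without glutamine, overlapping and with a difference of -0.17 (limma adjusted p = 0.447). The call of Polr1c was less steady than that of Polr1e. It ended without replicate 2 with glutamine (limma adjusted p = 0.113), replicate 3 with glutamine (0.0825), or replicate 1 (0.105), 2 (0.0692) or 3 (0.0907) without glutamine, and over its alternatives ranged from 0.0174 to 0.125. That of Polr1e ended without replicate 2 without glutamine (limma adjusted p = 0.0576, range 0.00503 to 0.0576).

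Among the nucleolar chaperones and scaffold proteins none of 5 measured genes passed the threshold, and 1 had an unadjusted p under 0.05. Ncl encodes nucleolin, which binds ribosomal DNA and its precursor RNA, and Npm1 encodes nucleophosmin, which gives the outer nucleolus its structure. Ncl read 16.18, 16.22 and 16.18 with and 16.41, 16.08 and 16.12 without glutamine, so that replicate 1 without glutamine stood above all others and the remaining arrays without glutamine lay below the arrays with it. Its difference was 0.01, with an interval from -0.23 to 0.25. Npm1 read 17.44, 17.41 and 17.47 with and 17.66, 17.53 and 17.56 without glutamine; the groups stood apart by little and the difference of 0.15 did not pass (limma adjusted p = 0.172). Npm1 has processed copies in the genome, so its row may collect signal from more than the gene, and the levels of both Ncl and Npm1 lie above 16, where the scale is least certain.

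Ddx21, an RNA helicase of polymerase I transcription and precursor processing, read 14.92, 14.75 and 14.85 with and 15.35, 15.06 and 14.87 without glutamine (difference 0.25, interval -0.06 to 0.56). Nolc1, the scaffold protein NOPP140 that ferries snoRNPs, had the largest absolute difference of these genes, -0.31, from 13.66, 13.50 and 13.40 to 13.41, 13.17 and 13.07. Its groups overlapped and it did not pass (limma adjusted p = 0.104), although it was called lower under each of the other scalings given further on. Mybbp1a, a MYB-binding protein of the nucleolus, differed by -0.09.

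The snoRNP proteins split by particle in sign, though none of the 6 passed (1 had an unadjusted p under 0.05). The 3 box C/D genes had differences above 0. Fbl encodes fibrillarin, the methyltransferase; it read 13.14, 12.89 and 12.82 with and 13.28, 13.01 and 12.74 without glutamine, with a difference of 0.06 (interval -0.30 to 0.42). Nop58, a core protein of the same particle, differed by 0.13. Rrp9, which binds the U3 RNA that docks on the precursor, read 9.53, 8.96 and 9.00 with and 9.90, 9.54 and 9.31 without glutamine, a difference of 0.42 (interval -0.07 to 0.90, limma adjusted p = 0.19). The signs of Fbl and Nop58 were not stable: after quantile normalization they were -0.06 and -0.22, and Rrp9 alone stayed above 0 under each scaling tried.

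All 3 box H/ACA genes had differences below 0, under each scaling too. Dkc1, which encodes dyskerin, the pseudouridine synthase, read 13.63, 13.39 and 13.58 with and 13.46, 13.30 and 12.97 without glutamine (difference -0.29, interval -0.62 to 0.04, limma adjusted p = 0.179). Gar1, another core protein, read 11.69, 11.63 and 11.59 with and 11.58, 11.18 and 11.17 without it. Its groups stood apart by a narrow gap, and its difference of -0.33 did not pass (limma adjusted p = 0.108). For Nhp2 the difference was -0.13. Whether the particles differ from each other was not tested.

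Of the 15 small subunit factors, 3 fell (20%), which made up 3 of the 6 falls, and 12 did not pass. The share of falls was above the 13% of all genes and under the 24.9% of genes above the median level. A difference below 0 was found in 11 of the 15, with a median of -0.28. Utp15 and Utp4 are parts of the same subcomplex, UTP-A, which binds the precursor first and links its transcription to processing. Utp15 read 12.01, 11.80 and 12.08 with and 11.45, 11.36 and 11.11 without glutamine, and all arrays without glutamine were lower (difference -0.66 ± 0.119 SE, interval -0.94 to -0.37, limma adjusted p = 0.0106). Over its 15 alternatives the adjusted p of Utp15 lay between 0.00369 and 0.0375. Utp4 fell from 14.96, 14.76 and 15.01 to 14.66, 14.48 and 14.44 (difference -0.38 ± 0.0989 SE, limma adjusted p = 0.0355). Wdr3, a factor of the UTP-B subcomplex, fell from 11.18, 11.17 and 10.95 to 10.87, 10.60 and 10.37 (difference -0.49 ± 0.139 SE, limma adjusted p = 0.0482). In both genes the groups stood apart, yet the calls were fragile. Utp4 lost its call without replicate 1 (limma adjusted p = 0.0976) or 3 (0.0849) with glutamine and without replicate 2 (0.111) or 3 (0.104) without glutamine. Wdr3 lost its call without replicate 1 (limma adjusted p = 0.124) or 2 (0.136) with glutamine and without replicate 2 (0.13) or 3 (0.108) without glutamine.

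Other genes of the same subcomplex did not pass. Heatr1, Wdr43 and Wdr75, which also belong to UTP-A, differed by 0.03, -0.15 and -0.28. Noc4l differed by -0.31 and did not pass. Late-acting factors did not pass either: Tsr1, a GTPase-like protein of cytoplasmic maturation, differed by -0.43 and Bysl by -0.34. Nob1, the nuclease that makes the last cut of the small subunit RNA, differed by -0.03 with an interval from -0.24 to 0.19. Utp20, a very large scaffold protein, had the highest difference of the 15, at 0.34, with no overlap between the groups and limma adjusted p = 0.14. The other 4 genes of this role lay between -0.37 (Dcaf13) and 0.09 (Rrp12).

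**Figure D2:**
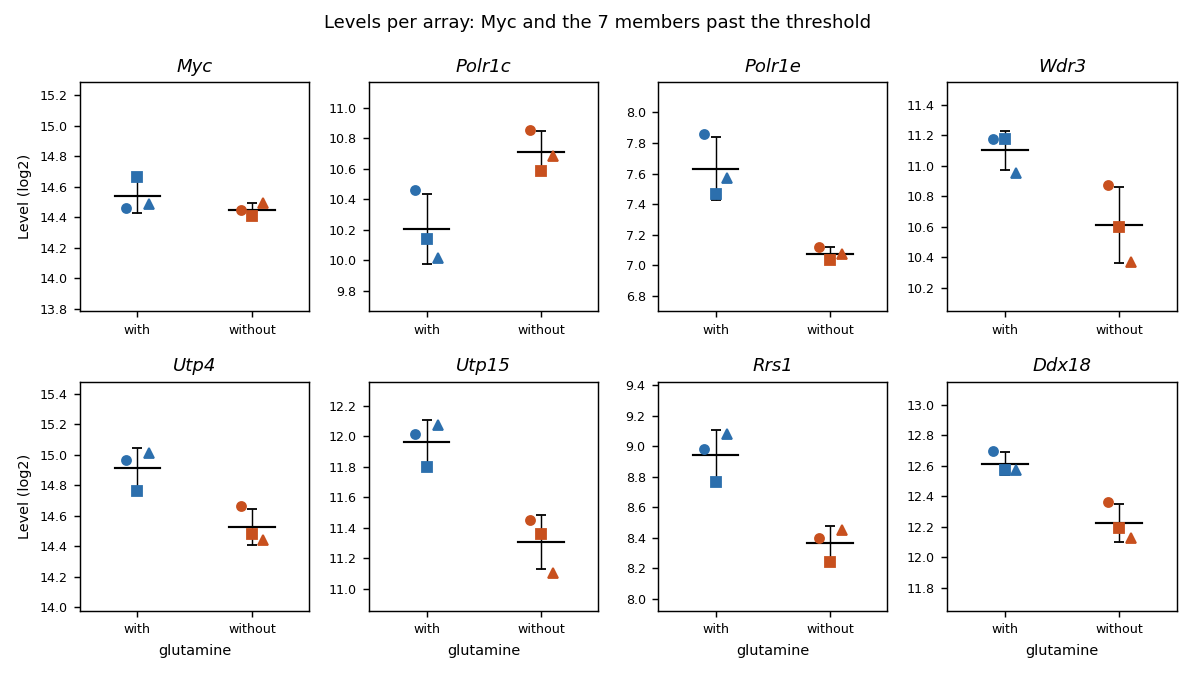
Levels on the log2 scale for Myc and for the 7 genes past the threshold, with 1 point per array (circle, square and triangle for replicates 1, 2 and 3), the mean as a line and the SD as a bar (n = 3). Each vertical axis spans the same length; the groups stand apart in all 7 called genes and overlap in Myc.

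The E-box CACGTG, which reads the same on both strands, is the core DNA motif of MYC and its partner MAX, and it was looked for in the promoters of these genes as a feature that the list did not use. RefSeq promoter windows (GRCm38.p6, 250 bases before to 50 after the start) were found for 40 of the 47 genes, and 8 of these genes (20%) held the motif, against 8.09% of the 27025 genes with a window. Genes above the median level were not counted apart for the motif. The windows of 4 genes are printed to show where it lies: Utp4, which fell and holds it, Utp15, which fell and does not hold it in this window, and Utp20 (0.34) and Nop2 (-0.51), which hold it and did not pass. All but Utp4 were chosen after their values were seen. A match is a description of the letters, not a binding site. The motif is in capitals, and begins 16 bases into the transcript in Utp4, at base 38 in Utp20 and 60 bases before the start in Nop2. The windows are chr8:106893390-106893689 (plus strand), chr13:98262943-98263242 (minus strand), chr10:88826765-88827064 (minus strand) and chr6:125131633-125131932 (plus strand), in the order of the lines.
Utp4: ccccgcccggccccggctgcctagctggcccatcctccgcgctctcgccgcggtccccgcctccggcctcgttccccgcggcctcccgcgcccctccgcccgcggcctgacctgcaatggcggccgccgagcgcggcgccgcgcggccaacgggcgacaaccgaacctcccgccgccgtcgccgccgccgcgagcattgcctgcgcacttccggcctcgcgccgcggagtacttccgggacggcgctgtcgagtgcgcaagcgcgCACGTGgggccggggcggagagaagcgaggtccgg
Utp15: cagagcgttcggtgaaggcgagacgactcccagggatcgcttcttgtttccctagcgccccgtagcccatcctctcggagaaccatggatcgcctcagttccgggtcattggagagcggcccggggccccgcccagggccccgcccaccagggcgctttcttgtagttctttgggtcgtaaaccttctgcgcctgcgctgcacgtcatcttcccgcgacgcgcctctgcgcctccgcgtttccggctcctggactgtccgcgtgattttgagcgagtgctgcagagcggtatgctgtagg
Utp20: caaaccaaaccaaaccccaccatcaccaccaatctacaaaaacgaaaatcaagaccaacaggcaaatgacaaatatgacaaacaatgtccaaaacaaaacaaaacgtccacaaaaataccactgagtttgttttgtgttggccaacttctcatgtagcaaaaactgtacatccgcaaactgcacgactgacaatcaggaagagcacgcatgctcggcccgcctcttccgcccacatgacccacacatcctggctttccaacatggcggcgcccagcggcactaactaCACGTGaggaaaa
Nop2: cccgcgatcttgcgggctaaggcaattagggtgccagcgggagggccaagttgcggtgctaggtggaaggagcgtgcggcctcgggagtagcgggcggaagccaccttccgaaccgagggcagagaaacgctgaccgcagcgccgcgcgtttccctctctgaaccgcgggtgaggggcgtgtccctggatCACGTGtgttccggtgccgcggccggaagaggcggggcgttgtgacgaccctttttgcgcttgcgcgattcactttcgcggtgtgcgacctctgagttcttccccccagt
The 8 genes with the motif had a median difference of -0.22 and ran from -0.51 to 0.34, and the 29 measured genes without it had a median of -0.17 and ran from -0.66 to 0.50. Of the 5 genes that fell and have a window, 1 held the motif, as did 7 of the 31 that did not pass.

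Factors of the large subunit leaned lower as well in their differences, with 10 of 13 measured genes below 0 and a median of -0.29. Their 2 falls (15.4%) were near the 13% of all genes and under the 24.9% of genes above the median level. Rrs1, which brings the small ribosomal RNA of the large subunit into the particle, fell from 8.98, 8.76 and 9.08 to 8.40, 8.24 and 8.45. No array overlapped (difference -0.58 ± 0.106 SE, interval -0.83 to -0.33, limma adjusted p = 0.0109, and 0.00364 to 0.0434 over its 15 alternatives). Ddx18, an RNA helicase of early large subunit assembly, fell from 12.70, 12.57 and 12.57 to 12.36, 12.19 and 12.13 (difference -0.39 ± 0.087 SE, limma adjusted p = 0.0222). Its call ended without replicate 1 (limma adjusted p = 0.0675) or 2 (0.0573) with glutamine and without replicate 2 (0.0782) or 3 (0.0688) without glutamine.

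Bop1, Pes1 and Wdr12 form the PeBoW complex, which is needed for the precursor cut that frees the large subunit RNA. None of them passed. Bop1 read 11.22, 10.61 and 10.85 with and 10.51, 10.47 and 10.57 without glutamine, with no overlap and a difference of -0.38 (interval -0.74 to -0.02, limma adjusted p = 0.126). Pes1 read 13.65, 13.55 and 13.38 with and 13.44, 13.27 and 12.99 without glutamine, overlapping, with a difference of -0.29 (interval -0.61 to 0.03). Wdr12 had an interval from -0.28 to 0.29 around a difference near 0. Bop1 alone of them passed under another scaling, centring over rows.

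Among the remaining large subunit factors, Nip7, Nop2 and Nop16 had differences of -0.53, -0.51 and -0.39 that narrowly did not pass (limma adjusted p = 0.0616, 0.0683 and 0.0766), each with no overlap between the groups. Nop2 encodes a methyltransferase that marks proliferating cells. Mrto4 (0.23) and Noc3l (0.21) lay above 0, and the platform ties the Mrto4 row to more than 1 gene entry, so that its value may include copies. Ftsj3 differed by -0.22, Noc2l by -0.19, and Rrp1b by -0.02 with an interval from -0.17 to 0.14.

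The 44 genes also shared a pattern across the replicates of a group. Replicate 1 without glutamine was the highest array of its group in 41 of 44 genes (93.2%), and in 37.9% of all genes. The exceptions were Myc, Bop1 and Rrs1, which were highest on replicate 3. Replicate 1 with glutamine was likewise the highest of its group in 31 of the 44 genes (70.5%), and in 40.4% of all genes. Measured from each gene's mean with glutamine, the median deviation of the 44 genes was 0.096, -0.084 and -0.033 on the arrays with glutamine and -0.0037, -0.22 and -0.28 on those without it. So 1 array without glutamine stood at the level of the control arrays in the median of the group, with 22 of the 44 genes below their mean with glutamine, against 33 and 34 genes on the other two. Over all genes the same medians lay between 0.040 and 0.062 on the arrays without glutamine. Genes that share arrays in this way are not independent of each other, and what sets replicate 1 apart was not tested.

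**Figure D3:**
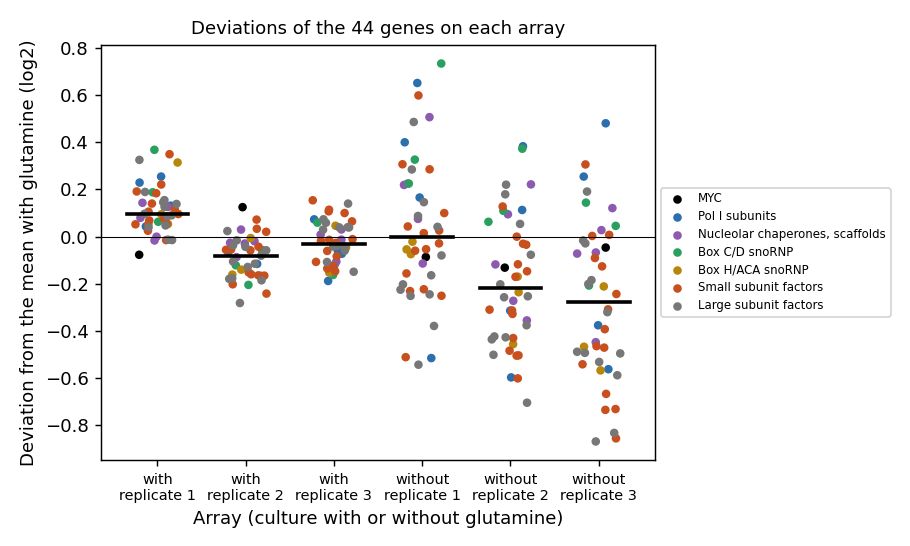
Deviation in log2 of each of the 44 genes from its own mean with glutamine, by array, with colours for roles and a line at the median. The medians are 0.096, -0.084 and -0.033 with glutamine and -0.0037, -0.22 and -0.28 without it.

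How many of these genes were called lower depended on how the arrays were scaled to each other. After quantile normalization 13 of 44 were lower and 1 higher, and after centring the arrays on their gene medians 13 were lower and 0 higher; centring over all rows of the table, an alternative chosen after seeing the data, gave 15 and 0. All genes moved too: 17.1%, 17.6% and 20% were called lower under these scalings and 4.73%, 5.12% and 3.96% higher, against 13% and 9.3% as deposited. The 6 genes called lower as deposited were called lower under each of them. Small subunit factors then had 5 falls under each, against 3 as deposited, and large subunit factors 5, 6 and 7, against 2. Nolc1, Dcaf13, Noc4l, Nop2, Nop16 and Nip7 joined them under all 3, Gar1 under quantile normalization and centring over rows, Noc2l under both centrings, and Bop1 under centring over rows. The call of Polr1c ended after centring (limma adjusted p = 0.0793 over genes and 0.125 over rows). The median of the 44 genes stood below that of all genes by 0.22 as deposited, by 0.24 after quantile normalization and by 0.22 after either centring. Centring shifts every gene on an array alike, so it could not change this gap. Set against genes above the median level as deposited, the gap was -0.10. A fit on those genes alone called 8 of the 44 genes lower (18.2%), beside 26.6% of all genes in that fit. Shares over genes above the median level were not taken under the other scalings.

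**Figure D4:**
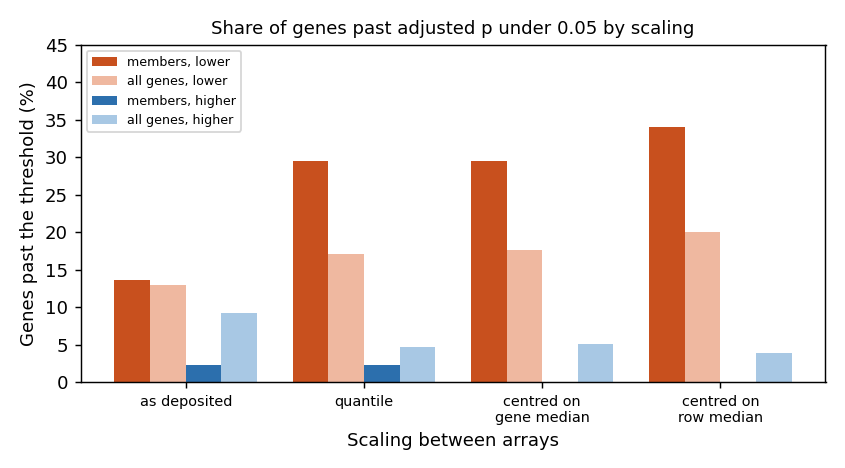
Percent of genes past an adjusted p under 0.05 (limma) in each direction, for the 44 genes and for all genes, under 4 scalings of the arrays. Lower calls among the 44 genes are 13.6% as deposited, near the 13% of all genes and under the 24.9% of genes above the median level. They are 29.5%, 29.5% and 34.1% under the other scalings, where all genes reach 17.1% to 20%. Genes above the median level were not counted under those scalings. No bar for higher calls is drawn among the 44 genes after centring because the count is 0.

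Signs of single genes near 0 turned as well. Ncl, Npm1, Fbl, Nop58, Heatr1, Imp4, Rrp12 and Wdr12 had a difference above 0 as deposited and below 0 under at least 1 of these scalings. After quantile normalization Ncl stood at -0.32 and Npm1 at -0.15, and neither passed (limma adjusted p = 0.0897 and 0.249). The difference of Myc became -0.30 after quantile normalization, -0.20 after centring over genes and -0.24 after centring over rows, with the lowest adjusted p of these at 0.0862.

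Other genes of ribosome production were taken from lists drawn up by role, 127 genes of which 120 were measured. Of these, 36 fell (30%), 4 rose (3.33%) and 80 did not pass, with a median difference of -0.15. Among genes above the median level 24.9% were lower and 13.7% higher, and among all genes 13% and 9.3%. The falls numbered 19 (15.8%) without replicate 1 with glutamine and 22 (18.3%) without replicate 2 with glutamine. They numbered 18 (15%) and 20 (16.7%) without replicate 2 and 3 without glutamine. In those fits 9.63%, 9.47%, 8.68% and 9.34% of all genes were called lower.

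The RNA exosome, the nuclease complex that trims ribosomal RNA and destroys its by-products, had 8 falls among 13 genes (61.5%), no rise, and a median of -0.46, where 24.9% of all genes above the median level were lower. Exosc8, a ring subunit, fell from 10.61, 10.58 and 10.67 to 9.67, 9.61 and 9.55 (difference -1.01, limma adjusted p = 0.00033). Mphosph6 (-0.80), a cofactor of the nuclear exosome, and Mtrex (-0.75), its helicase, fell too. Those 3 calls held under all 15 alternatives, and 8 or 9 genes of the list were lower under each scaling. The count was 5 (38.5%) without replicate 2 with glutamine, or without replicate 2 or 3 without glutamine. In those fits 9.47%, 8.68% and 9.34% of all genes were called lower.

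Among 7 further genes of polymerase I transcription, 3 fell (42.9%) and none rose, where 24.9% of genes above the median level were lower. Rrn3, the initiation factor that ties the polymerase to growth signals, fell from 12.33, 12.22 and 12.20 to 11.88, 11.58 and 11.39 (difference -0.64, limma adjusted p = 0.0166). Polr1d, the partner subunit of Polr1c, fell by 0.54, and Ubtf, which binds along the ribosomal DNA, fell by 0.33. No fall remained called without replicate 2 with glutamine or without replicate 2 without glutamine. Without replicate 1 with glutamine or replicate 3 without it, 1 (14.3%) did. In those fits 9.47%, 8.68%, 9.63% and 9.34% of all genes were called lower. The call of Rrn3 ended without replicate 1 (limma adjusted p = 0.0517) or 2 (0.0507) with glutamine and without replicate 2 (0.063) without glutamine. Polr1d lost its call without replicate 2 with glutamine (limma adjusted p = 0.0601) and replicate 1 (0.053), 2 (0.0813) or 3 (0.0836) without glutamine. Ubtf lost it without replicate 1 (limma adjusted p = 0.072) or 2 (0.0639) with glutamine and replicate 2 (0.0621) or 3 (0.0717) without glutamine.

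Of 9 further snoRNP factors 4 fell (44.4%) and none rose, where 24.9% of genes above the median level were lower. Znhit3 fell from 7.68, 7.44 and 7.30 to 6.53, 6.45 and 6.35 (difference -1.03, limma adjusted p = 0.00169), and Nufip1 fell by 0.70; Znhit3 and Nufip1 are assembly factors of box C/D particles. Ruvbl2, an ATPase of the same chaperone machinery, fell by 0.64 (limma adjusted p = 0.0138, and 0.0516 without replicate 2 with glutamine). Its partner gene Ruvbl1, chosen after its values were seen, fell by 0.52 (limma adjusted p = 0.0275). Its call ended without replicate 1 (limma adjusted p = 0.0535) or 2 (0.0721) with glutamine and replicate 2 (0.0947) or 3 (0.0791) without glutamine. Without replicate 2 with glutamine the list held 2 falls (22.2%), where 9.47% of all genes were called lower. Other assembly factors of this list did not pass, among them Naf1 (0.08), Shq1 (0.08) and Znhit6 (0.28), chosen after their values were seen.

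Further small subunit factors fell in 11 of 43 cases (25.6%), near the 24.9% of genes above the median level, and rose in 2. The largest falls were Nop9 (-0.80), Wdr36 (-0.75) and Utp23 (-0.74), each called under all 15 alternatives. The falls numbered 6 (14%) without replicate 1 with glutamine or replicate 2 without glutamine, and 7 (16.3%) without replicate 3 without glutamine. In those fits 9.63%, 8.68% and 9.34% of all genes were called lower. The genes that rose were Nol10 (0.56) and Aatf (0.52), chosen after their values were seen. Aatf kept its call under all 15 alternatives and Nol10 under 4; the adjusted p of Nol10 was 0.0436 and ran from 0.026 to 0.125 over them (limma). Nol10 lost its call under each other scaling, and when an array other than replicate 3 with glutamine was left out. Of 48 further large subunit factors 10 fell (20.8%), under the 24.9% of genes above the median level, and 2 rose. The falls numbered 3 (6.25%) without replicate 1 with glutamine, and 4 (8.33%) without replicate 3 with glutamine or replicate 2 or 3 without glutamine. In those fits 9.63%, 13.1%, 8.68% and 9.34% of all genes were called lower. The falls numbered 17 (35.4%) after quantile normalization and 20 (41.7%) after either centring, where 17.1%, 17.6% and 20% of all genes were. Mdn1, the giant AAA ATPase that strips factors from the large subunit precursor, rose from 10.41, 10.37 and 10.70 to 12.02, 11.49 and 11.81, the largest absolute difference among these 120 genes and the 44 genes above (1.28, limma adjusted p = 0.00262). Nop53, which recruits the exosome, rose by 0.82 (limma adjusted p = 0.0243). Its call ended without replicate 2 with glutamine (limma adjusted p = 0.0516), replicate 1 (0.0756), 2 (0.0512) or 3 (0.0699) without glutamine, and after centring over rows (0.0526). Wdr74 fell by 0.72 (limma adjusted p = 0.0183, and 0.0549 and 0.0503 without replicate 1 and 2 with glutamine).

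**Figure D5:**
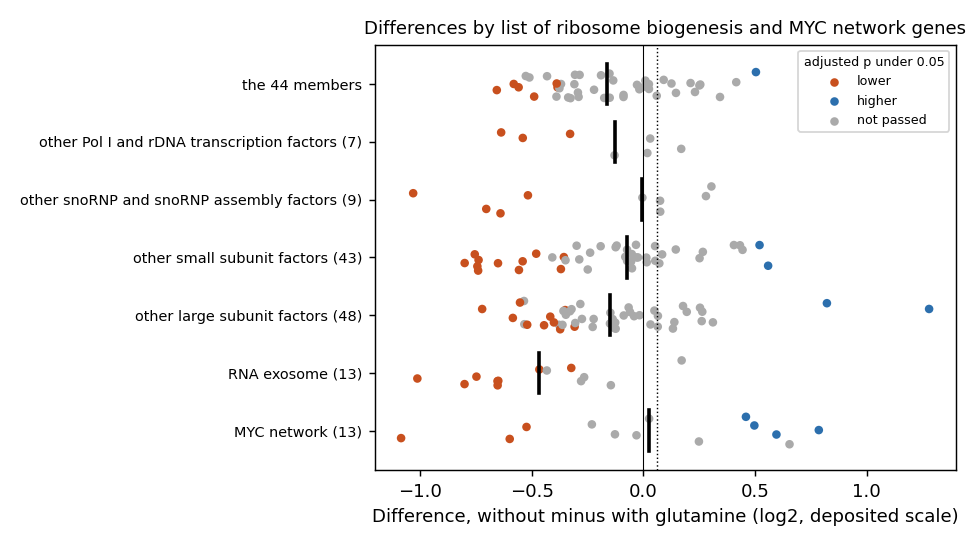
Differences in level (log2, without minus with glutamine) of the 44 genes and of the measured genes in each further list, with 1 point a gene and a bar at the median; the dotted line is the median of all genes, 0.060. The RNA exosome has the lowest median, -0.46, and the right-most point, at 1.28, is Mdn1.

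The MYC network list held proteins that pair with MAX or act on MYC, and also Mlx and Mlxip. It had calls in both directions. Of 13 genes, 4 rose (30.8%) and 3 fell (23.1%), where 13.7% of all genes above the median level were higher and 24.9% lower. The falls numbered 1 (7.69%) when replicate 1 or 2 with glutamine, or replicate 2 or 3 without it, was left out. In those fits 9.63%, 9.47%, 8.68% and 9.34% of all genes were called lower. Max, the obligate partner of MYC, rose from 12.33, 12.08 and 12.14 to 12.56, 12.71 and 12.77 (difference 0.50, limma adjusted p = 0.0134, and 0.0535 without replicate 2 without glutamine). Mga, a MAX-binding repressor, rose by 0.60, and Mxd4, a MYC antagonist, rose by 0.79. Mxi1, another antagonist, fell by 1.08 on the brighter of its 2 rows, and the other row differed by -0.52. The calls of Mga, Mxd4 and Mxi1 held under all 15 alternatives.

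Mlx, Mxd1 and Fbxw7 passed less firmly. Mlx, a MAX-like partner of nutrient-sensing factors, fell by 0.60 (limma adjusted p = 0.0287). Its call ended without replicate 1 (limma adjusted p = 0.0633) or 2 (0.0788) with glutamine and replicate 2 (0.0898) or 3 (0.0862) without glutamine. Mxd1 fell by 0.52 (limma adjusted p = 0.0465, and 0.0591 to 0.13 when an array other than replicate 3 with glutamine was left out). Fbxw7, which marks MYC protein for destruction, rose by 0.46 (limma adjusted p = 0.0438, and 0.0639 to 0.127 when an array other than replicate 2 without glutamine was left out); after centring it did not pass (0.124 over genes and 0.152 over rows). Of 15 alternatives Fbxw7 kept its call under 5.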

How the data were processed

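Total RNA was measured on 6 Affymetrix arrays, 3 per group. The deposited values are log2 signals; per the submitters' processing notes the authors used RMA and Transcriptome Analysis Console 4.0, and any filter is not given in the sources used here. Of 65956 rows, 31258 carried 1 gene symbol, 1492 several and 33206 none, and 1135 symbols were updated through RefSeq. The row with the highest mean stood for a gene, which left 30702 genes. Values were used as deposited, with no filter. The groups were compared in limma 3.58.1 (R 4.3.3) with lmFit and eBayes, without a replicate block, and p-values were adjusted by Benjamini-Hochberg over all genes; an adjusted p under 0.05 was called. The number of arrays limits the precision. The fit was also run on simulated data with noise drawn separately for each gene. Genes that move together on an array were not simulated, and no result here rests on that run.

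The genes and lists were chosen with earlier results of these data known. Values per array were given for Myc, genes past the threshold, the largest absolute difference in each role, and Ncl, Npm1, Fbl, Dkc1, Polr1a, Polr1b, Bop1, Pes1 and Ddx21; for other lists, up to 3 called genes with the largest differences were named, and all called genes of the MYC network. Of 127 other biogenesis genes, 7 were not measured. Alternatives were quantile normalization, centring, a fit on all rows or on genes above the median level only, averaging a symbol's rows, eBayes with trend and robust settings, array weights, a replicate block, and leaving out each array. Promoter windows are RefSeq's (GRCm38.p6), searched with Python 3.11.15; figures used matplotlib 3.10.9.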

Additional observations from a re-analysis of the deposited data

How the results depend on the processing

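Over the 44 genes, 6 were called lower as deposited, 13 after quantile normalization or centring on gene medians and 15 after centring over rows, and the number called higher was 1 as deposited and 0 after either centring or in a fit over all rows. Their median difference of -0.16 became -0.29 with quantile normalization and -0.32 when centred over rows. Leaving out 1 array gave 2 to 11 genes lower (4.55% to 25%), 0 to 1 higher and a median from -0.23 to -0.10. In those fits 8.68% to 13.1% of all genes were called lower and 4.54% to 8.11% higher. Among the other 120 biogenesis genes, 36 were lower (30%) and 4 higher (3.33%) as deposited. With 1 array left out, 18 to 37 were lower (15% to 30.8%) and 2 to 5 higher (1.67% to 4.17%). After centring over rows 2 were higher. Centring over rows was chosen after seeing the data. Which scaling suits these arrays was not tested, and shares over genes above the median level were taken as deposited only. Myc did not pass under any of its 15 alternatives.

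The call of Polr1c also ended in a fit over all rows (limma adjusted p = 0.05002), as did those of Wdr3 (0.0624) and Utp4 (0.0528). With trend and robust settings Wdr3 (limma adjusted p = 0.0561) and Utp4 (0.0571) did not pass. Mxd1 and Fbxw7 did not pass over all rows (limma adjusted p = 0.0593 and 0.0587) or with trend and robust settings (0.0541 and 0.0504), nor did Fbxw7 with array weights (0.0527). Replicate numbers are shared by the groups, but deviations of same-numbered arrays correlated at 0.066, -0.234 and 0.276, and not every array correlated best with its own number, so the arrays were not treated as pairs. With the replicate number as a block, 10 of the 44 genes were lower (22.7%) and 2 higher (4.55%), beside 12.2% and 8.3% of all genes. Nolc1, Dcaf13, Nop2 and Nip7 (limma adjusted p = 0.0446, 0.028, 0.0465 and 0.0236) joined the genes called lower and Rrp9 (0.0348) those called higher. Mxd1 (0.0716) and Nol10 (0.0568) lost their calls under the block.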
